A study of Mus musculus with 8 samples.

Results

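The replication-dependent histone genes were taken as the protein-coding mouse genes whose symbol is H2ac, H2bc, H3c or H4c followed by a number. The RefSeq annotation of GRCm38.p6, the assembly behind mm10, holds 57 of them among 21887 protein-coding genes. They comprised 12 H3, 12 H4, 17 H2A and 16 H2B genes. On chromosome 13 lay 47 of them, 21 in a first stretch (chr13:21715711-22043658) and 26 in a second stretch (chr13:23531044-23934913), separated by more than 500 kb, and the other 10 lay on chromosome 3 (chr3:96219885-96270192). H3K27ac, the acetyl mark on lysine 27 of histone H3 that active promoters and enhancers carry, was profiled by ChIPmentation, in which a transposase inserts adapters into antibody-bound chromatin, in muscle stem cells (satellite cells) of C57BL/6 mice. Activated satellite cells (ASC) came from skeletal muscle injured with BaCl2 and collected 2.5 days later, and freshly isolated satellite cells (FISC) came from skeletal muscle with no treatment. The labels name no allele or transgene in either group. The comparison asks how the mark differs between activated and freshly isolated cells. Each group had 2 H3K27ac libraries, and the 4 input libraries were not used here. The labels do not say whether replicates came from separate animals, so each p-value reflects no more than the spread among these 4 libraries, which may be technical.

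Replication-dependent histone genes supply the H3, H4, H2A and H2B proteins that package newly copied DNA, and their transcription is tied to S phase. The clusters gather in a nuclear compartment, the histone locus body, where NPAT acts as their coactivator once cyclin E and CDK2 phosphorylate it. Most of the transcripts carry no poly(A) tail and end in a stem-loop that SLBP binds. Satellite cells are mostly quiescent in resting muscle and divide after injury.

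Promoter sequences are shown for the gene of each histone type with the largest difference between ASC and FISC, all on chromosome 13, and for a pair of chromosome 3 genes whose windows were not called without scaling between libraries. They come from RefSeq (GRCm38.p6), run from 250 bases before to 50 bases after the annotated start, and are written 5′ to 3′ on the gene's strand. Capitals mark the motifs searched on both strands, none of which contains another. These were CCAAT, bound by NF-Y, the TATA box written as TATAAA, the octamer ATTTGCAT and the E2F sites TTTGGCGC and TTTCGCGC.
H3c8 promoter, chr13:23535168-23535467, plus strand: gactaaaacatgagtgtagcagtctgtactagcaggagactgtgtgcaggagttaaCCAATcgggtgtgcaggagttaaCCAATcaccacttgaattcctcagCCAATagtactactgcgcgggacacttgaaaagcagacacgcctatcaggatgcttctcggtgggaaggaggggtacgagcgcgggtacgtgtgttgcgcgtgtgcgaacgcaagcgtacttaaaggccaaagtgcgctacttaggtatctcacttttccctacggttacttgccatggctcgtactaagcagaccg
H4c12 promoter, chr13:21750504-21750803, minus strand: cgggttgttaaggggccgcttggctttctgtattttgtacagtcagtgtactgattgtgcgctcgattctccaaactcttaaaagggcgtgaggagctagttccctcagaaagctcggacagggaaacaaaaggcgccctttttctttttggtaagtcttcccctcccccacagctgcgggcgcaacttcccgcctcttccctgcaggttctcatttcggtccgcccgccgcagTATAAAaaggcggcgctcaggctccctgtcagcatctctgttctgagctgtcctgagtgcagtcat
H2ac10 promoter, chr13:23533625-23533924, plus strand: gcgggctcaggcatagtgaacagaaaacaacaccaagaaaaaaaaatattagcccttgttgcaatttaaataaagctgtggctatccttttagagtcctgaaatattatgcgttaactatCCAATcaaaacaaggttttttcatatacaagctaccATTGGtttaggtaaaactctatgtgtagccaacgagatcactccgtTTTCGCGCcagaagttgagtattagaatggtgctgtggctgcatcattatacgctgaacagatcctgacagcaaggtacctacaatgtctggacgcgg
H2bc7 promoter, chr13:23574158-23574457, minus strand: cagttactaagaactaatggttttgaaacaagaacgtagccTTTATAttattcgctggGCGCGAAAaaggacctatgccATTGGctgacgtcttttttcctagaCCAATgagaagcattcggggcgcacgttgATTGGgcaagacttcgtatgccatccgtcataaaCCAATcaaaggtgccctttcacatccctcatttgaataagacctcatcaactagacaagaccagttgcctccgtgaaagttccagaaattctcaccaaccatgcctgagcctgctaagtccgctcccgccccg
H2ac21 promoter, chr3:96219635-96219934, plus strand: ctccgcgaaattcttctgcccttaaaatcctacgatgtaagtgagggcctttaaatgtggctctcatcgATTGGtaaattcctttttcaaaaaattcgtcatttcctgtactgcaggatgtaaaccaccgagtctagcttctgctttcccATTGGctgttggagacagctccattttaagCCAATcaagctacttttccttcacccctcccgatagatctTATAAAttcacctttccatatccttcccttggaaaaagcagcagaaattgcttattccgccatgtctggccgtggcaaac
H2bc18 promoter, chr3:96269450-96269749, plus strand: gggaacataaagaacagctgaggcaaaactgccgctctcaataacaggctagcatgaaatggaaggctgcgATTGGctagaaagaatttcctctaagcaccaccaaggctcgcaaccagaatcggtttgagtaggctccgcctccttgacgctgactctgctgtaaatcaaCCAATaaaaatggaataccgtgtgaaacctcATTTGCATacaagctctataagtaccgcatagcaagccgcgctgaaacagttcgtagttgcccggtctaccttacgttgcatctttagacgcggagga
The promoter of H3c8 held 3 CCAAT motifs, that of H4c12 held 1 TATAAA motif, and that of H2ac10 held 2 CCAAT motifs and 1 E2F site. On chromosome 3 the promoter of H2ac21 held 3 CCAAT motifs and 1 TATAAA motif, and that of H2bc18 held 2 CCAAT motifs and 1 octamer. Peaks covered 100% of these 6 promoters in both ASC libraries. In FISC replicates 1 and 2 they covered 11.3 and 0% of the H3c8 promoter, 5.33 and 38.3% of that of H4c12, and none of that of H2ac10. FISC coverage was 0.667 and 27.7% at H2bc7, 100% in both libraries at H2ac21, and 100 and 39.3% at H2bc18. The 4 chromosome 13 promoters were whole under a peak in ASC and mostly outside peaks in FISC. These 4 genes were chosen for the largest differences in the same peak lists, so their promoter coverage is no separate result. The chromosome 3 pair was taken from genes not called in these lists, so the same holds for it. Among the other chromosome 3 promoters, FISC coverage was 35.0 and 17.3% at H3c14 and 36.3 and 47.7% at H3c15. It was 100% in both libraries at H2ac18, H2ac19, H2ac20 and H3c13.

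Across all members with an entry, 52 genes with 53 promoters, CCAAT occurred in 84.9%, against 37.4% of all 32851 promoters in the table. The octamer, the site of POU2F1 (OCT1), was found in 24.5% of member promoters against 1.74% of all promoters, TATAAA in 56.6% against 13.6%, and the E2F sites in 17.0% against 0.813%. The types differed in their motifs. Every H3, H2A and H2B promoter in the table held CCAAT, but 27.3% of the H4 promoters did. TATAAA was found in 40% of H3, 72.7% of H4, 64.7% of H2A and 46.7% of H2B promoters. The octamer was present in 35.3% of H2A and 46.7% of H2B promoters and the E2F sites in 29.4 and 26.7%, and neither was present in any H3 or H4 promoter. Head-to-head H2A and H2B genes share promoter DNA, so these counts are not independent. A motif match describes these letters only.

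Peaks covered more of the histone gene windows in ASC than in FISC. The measure was the length under peaks within 2 kb of either end of a gene, called its window, which held between 4.38 kb (H4c3) and 8 kb (H2bc6, H2bc4, H2bc22). Windows of 52 members overlapped that of another member, so neighbours share bases, and the 57 windows merged into 27 regions of 176.5 kb in all. Of those bases, 82.4 and 88.8 kb lay under peaks in ASC replicates 1 and 2, against 35.1 and 32.9 kb in FISC replicates 1 and 2. That was 48.5 ± 2.59% in ASC and 19.3 ± 0.891% in FISC (SD, n = 2 libraries each), 2.52 times as much in ASC, with no overlap between groups. Windows of all protein-coding genes together held 19.1 ± 1.36 Mb under peaks in ASC and 15.0 ± 0.241 Mb in FISC, that is 1.27 times as much in ASC, and over the whole genome ASC peaks added up to 1.57 times the FISC length. In bulk libraries, acetylation in more of the cells and more acetylation per cell cannot be told apart.

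The lists differed in length. ASC replicates 1 and 2 held 50154 and 54700 peaks, and FISC replicates 1 and 2 held 45014 and 43092. Each list is a set of calls by MACS2 with no read counts, so read depth is unknown and no counting interval can be given. Because ASC lists cover more, counts over all members, each histone type, each cluster and each gene list are also given after dividing by a library's total covered length and after cutting all lists to equal covered length.

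Of the 57 members, 47 were called higher in ASC, none lower, and 10 passed in neither direction (limma over all 12924 genes covered in at least 2 libraries, Benjamini-Hochberg adjusted p under 0.05). Among all genes tested, 26.5% were called higher in ASC and 3.61% lower. Of the 47, H2ac1 and H2bc1 had no coverage in FISC and entered the test only through the ASC libraries. In 54 of 57 members the lower ASC value exceeded the higher FISC value, a pattern that 62.1% of all genes tested also showed. The members' median difference was 1.68 kb, against 0.303 kb for all genes tested. After division by total covered length, 35 members were called higher and 6 lower, where 9.19% of all genes were called higher and 36.6% lower. All 6 lower calls were on chromosome 3. Without FISC replicate 2 the count called higher was 30, and 677 genes were called higher in the whole table, against 3419 with all libraries. With lists cut to equal covered length, 44 of 55 members tested were called higher and none lower, where 15.8% of all 12103 genes tested were called higher and 13.1% lower. Many histone genes are near-identical copies, and how reads that map to several places were treated is not given in the sources used here.

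**Figure D1:**
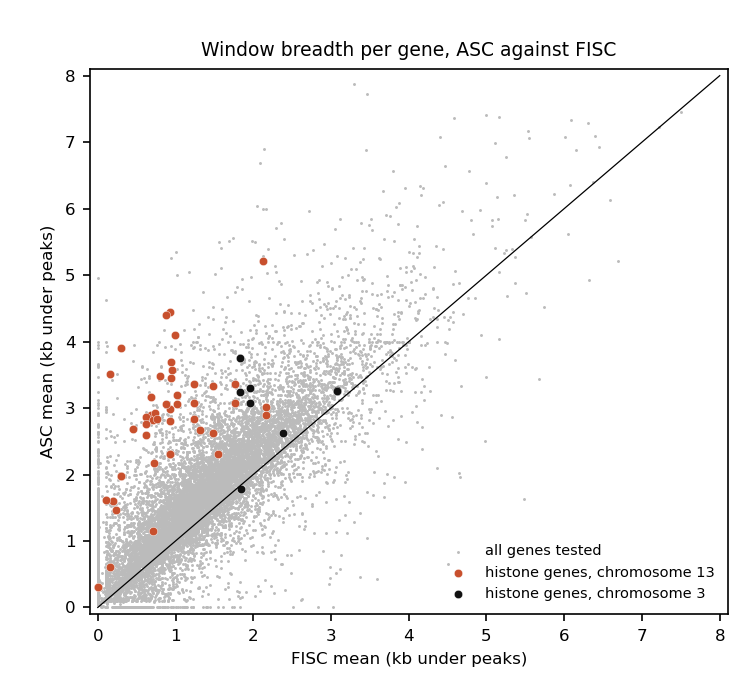
Kilobases under peaks in the window of each gene, ASC mean on the vertical axis and FISC mean on the horizontal axis (n = 2 libraries each), for 12924 genes tested (grey), histone genes of chromosome 13 (red) and of chromosome 3 (black), with the line of equality. The 47 chromosome 13 genes lie above the line, and H3c13 and H2bc18 of chromosome 3 lie just below it.

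**Figure D2:**
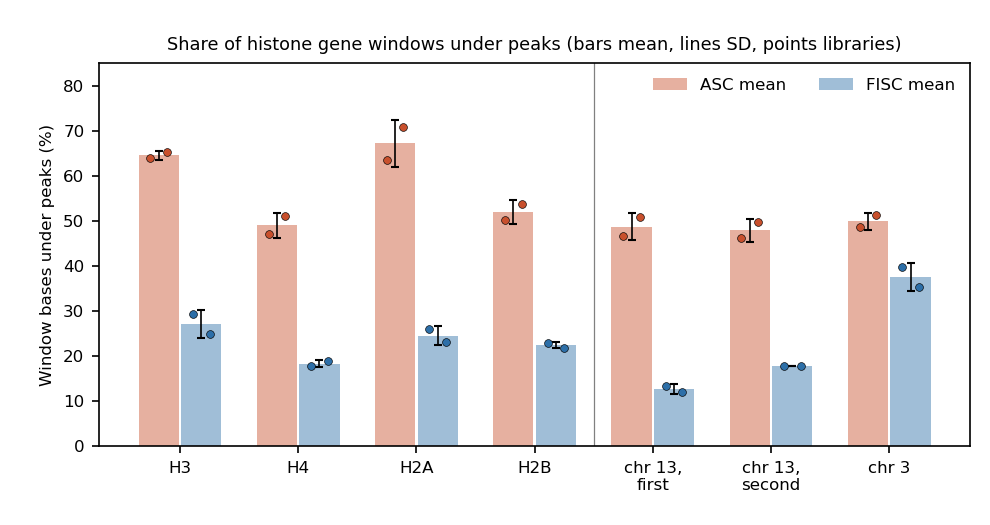
Share of window bases under peaks (percent, vertical axis) by histone type and by gene cluster, with ASC left of FISC in each pair. Bars are means of 2 libraries, lines are SD and points are libraries. ASC bars reach 48.7% in the first stretch of chromosome 13 and 49.9% on chromosome 3, while FISC bars are at 12.7% and 37.6%.

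H3, which forms the core of the nucleosome with H4 and carries the lysine 27 that is acetylated here, had 11 of 12 genes called higher in ASC. H3 windows held 35.2 and 35.9 kb under peaks in ASC, against 16.2 and 13.7 kb in FISC, a ratio of 2.38. The largest H3 difference was at H3c8, with 3.49 and 3.54 kb in ASC, against 0.325 and 0 kb in FISC (difference 3.35 kb, SE 0.161, adjusted p = 0.00193). Its window was nearly bare in FISC. H3c11 held 2.96 and 2.76 kb in ASC, against 0.722 and 0.526 kb in FISC (adjusted p = 0.00238). H3c4 held 2.88 and 3.23 kb in ASC, against 0.808 and 0.955 kb in FISC (adjusted p = 0.00322). For both genes every ASC library lay well above every FISC library, and 62.1% of all genes tested had both ASC values above both FISC values. H3c6 had the smallest called difference of the type, with 2.31 and 2.30 kb in ASC, against 1.51 and 1.59 kb in FISC (adjusted p = 0.0148), and its difference became -0.0925 kb after division by total covered length. Its call was lost when either FISC library was left out (differences of 0.716 kb without replicate 1 and 0.793 kb without replicate 2). The H3 gene not called was H3c13 on chromosome 3. Divided by total covered length, 6 H3 genes were called higher and 1 lower, and at equal covered length 11 of 12 tested were called higher and none lower.

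H4, the partner of H3, had 9 of 12 genes called higher. Its windows held 24.6 and 26.7 kb in ASC, against 9.29 and 9.88 kb in FISC, a ratio of 2.68. H4c12 held 2.40 and 2.98 kb in ASC, against 0.421 and 0.484 kb in FISC (difference 2.24 kb, SE 0.222, adjusted p = 0.00457). H4c9 held 2.76 and 2.88 kb in ASC, against 0.546 and 0.866 kb in FISC (adjusted p = 0.00295), and H4c18 held 2.93 and 3.05 kb in ASC, against 0.793 and 1.07 kb in FISC (adjusted p = 0.00292). These genes lie in the first stretch of chromosome 13, and their ASC values all lay above their FISC values, as in 62.1% of all genes tested. H4c3 showed 0.766 and 1.54 kb in ASC, against 0.752 and 0.667 kb in FISC (adjusted p = 0.252). Its ASC replicate 1 was level with FISC, and without that library the difference was 0.827 kb and passed the test. H4c2, named here after its values were seen, had the lowest ASC level of the H4 genes, 0.616 and 0.602 kb in ASC, against 0 and 0.305 kb in FISC (adjusted p = 0.052). Divided by total covered length, 7 H4 genes were called higher and 1 lower, and at equal covered length 8 of 12 tested were higher and none lower.

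H2A, which pairs with H2B on the outside of the H3 and H4 core, had 14 of 17 genes called higher. Its windows held 45.6 and 50.9 kb in ASC, against 18.7 and 16.6 kb in FISC, a ratio of 2.74. H2ac10 had the largest difference of all members in these windows, with 3.65 and 4.15 kb in ASC, against 0.325 and 0.268 kb in FISC (difference 3.60 kb, SE 0.205, adjusted p = 0.00196). The H2ac7 window was covered over 4.26 and 4.54 kb in ASC, against 0.808 and 0.955 kb in FISC (adjusted p = 0.00193). In ASC replicate 2 that was the whole window of 4.54 kb. H2ac24 held 4.03 and 4.16 kb in ASC, against 0.837 and 1.16 kb in FISC (adjusted p = 0.00196). The 3 H2A genes not called were H2ac20 and H2ac21 on chromosome 3 and H2ac6 on chromosome 13. H2ac6, named after its values were seen, was broad in both groups, with 2.73 and 3.07 kb in ASC, against 2.49 and 1.85 kb in FISC (adjusted p = 0.0967). With each base given to its nearest gene alone, which takes shared bases from a window, the differences were 1.81 kb at H2ac10, 0.826 kb at H2ac7, 0.692 kb at H2ac24 and 1.87 kb at H3c8, and all 4 genes were still called. H3c4, H4c9 and H4c18 then differed by 1.19, 1.03 and 1.25 kb and were also still called. With division by total covered length 11 H2A genes were called higher and 2 lower, and at equal covered length 13 of 16 tested were higher and none lower.

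H2B had 13 of 16 genes called higher, and its windows held 42.9 and 46.0 kb in ASC, against 19.6 and 18.7 kb in FISC, a ratio of 2.32. At H2bc7 peaks filled the whole window of 4.45 kb in both ASC libraries, against 0.861 and 1.01 kb in FISC (difference 3.51 kb, SE 0.144, adjusted p = 0.00193). H2bc8 held 3.52 and 3.45 kb in ASC, against 0.825 and 0.765 kb in FISC (adjusted p = 0.00193). Both genes lie under a peak that runs over 5 members in ASC. H2bc6 held 5.10 and 5.33 kb in ASC, against 1.80 and 2.46 kb in FISC (adjusted p = 0.00386), in a window of 8 kb, since its annotation spans 37455 bases. The nearest-gene differences were 1.11 kb at H2bc7, 1.12 kb at H2bc8 and 1.36 kb at H2bc6, with the calls kept. The far end of that annotation lies beside the linker histone gene H1f4, and the 4 kb there held 2.55 and 2.62 kb in ASC, against 0.936 and 0.71 kb in FISC. H2bc4, chosen after its values were seen, shares most of its covered bases with H2ac6 and did not pass (adjusted p = 0.0685). The testis-expressed pair H2bc1 and H2ac1, also chosen after their values were seen, had the narrowest coverage of all members. They held 0.31 and 0.305 kb in ASC against 0 kb in both FISC libraries (adjusted p = 0.035). Both genes entered the test only through the ASC libraries, so no lower call was possible. When an ASC library was left out they were not tested. The call was lost when a FISC library was left out (difference 0.3075 kb) and after division by total covered length. Under that division 11 H2B genes were called higher and 2 lower, and at equal covered length 12 of 15 tested were higher and none lower.

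**Figure D3:**
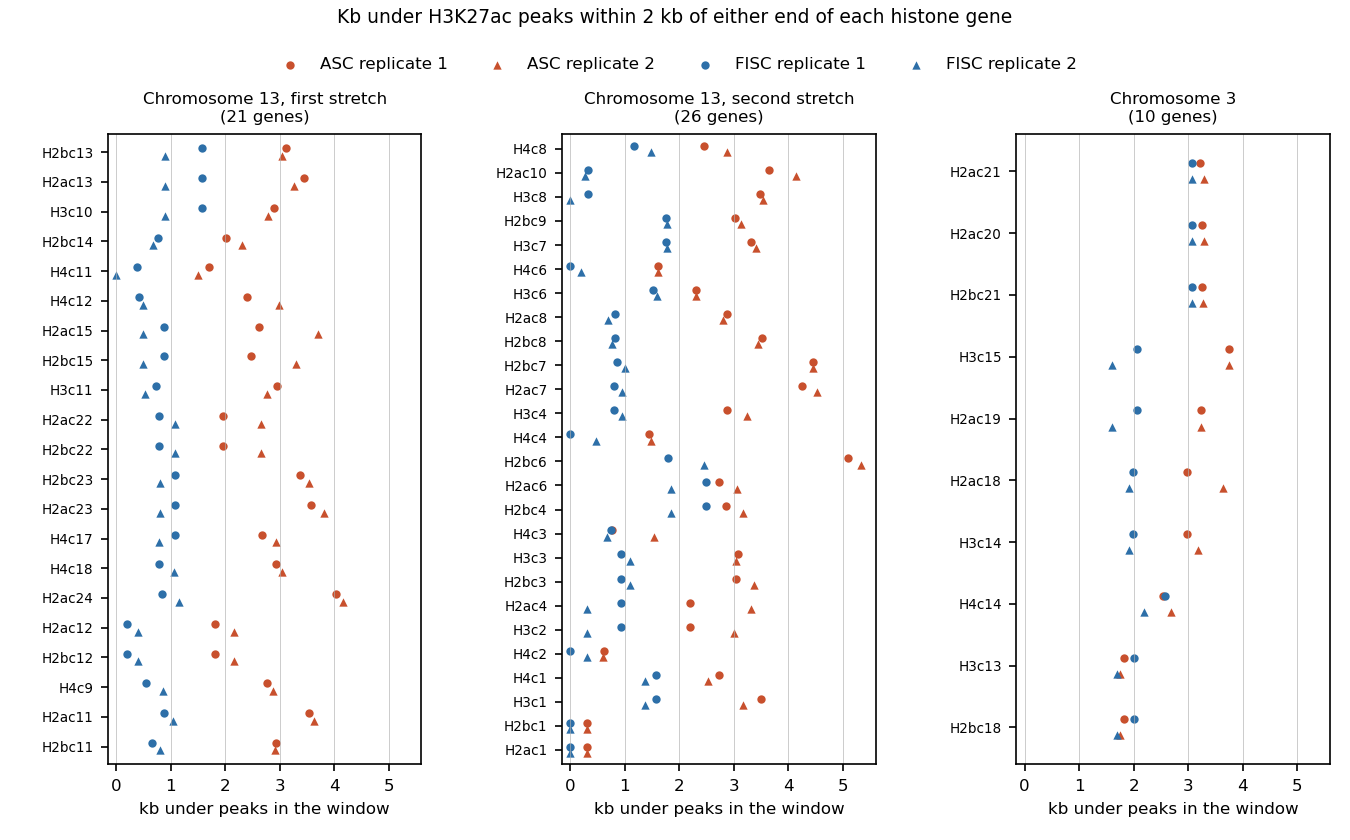
Kilobases under peaks in the window of each of the 57 histone genes (horizontal axis), 1 row per gene in chromosome order, for ASC (red) and FISC (blue), with circles for replicate 1 and triangles for replicate 2. ASC points lie right of FISC points throughout chromosome 13, and on chromosome 3 they mix at H4c14, H3c13 and H2bc18.

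The ratio of ASC to FISC coverage ranged from 2.32 to 2.74 among the histone types and from 1.33 to 3.84 among the clusters. In the first stretch of chromosome 13 all 21 genes were called higher in ASC, with 29.6 and 32.3 kb under peaks in ASC, against 8.53 and 7.58 kb in FISC, a ratio of 3.84. In the second stretch 22 of 26 genes were called higher, with 38.5 and 41.4 kb in ASC, against 14.9 and 14.8 kb in FISC, a ratio of 2.69. On chromosome 3, 4 of 10 genes were called higher, with 14.3 and 15.1 kb in ASC, against 11.7 and 10.5 kb in FISC, a ratio of 1.33. After division by total covered length 20 of 21, 15 of 26 and 0 of 10 were called higher in these clusters, and at equal covered length 21 of 21, 19 of 24 and 4 of 10 tested, with none lower. Coverage of the chromosome 3 windows was thus near that of chromosome 13 in ASC and above it in FISC. Division by total covered length leaves a ratio within a library unchanged. Such a ratio can still depend on how readily weak peaks were called in a list, which was not tested. The percent of window bases covered on chromosome 13 over that on chromosome 3 was 0.953 and 0.979 in ASC, against 0.401 and 0.431 in FISC. The same order held within each type, for example 3.57 for H2A on chromosome 13 and 1.43 for H2A on chromosome 3 (ASC over FISC), or 2.76 for H2B on chromosome 13 and 1.03 on chromosome 3. Genes of a cluster share peaks, and the difference between chromosomes was not tested.

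On chromosome 3, 6 genes were not called and 4 were called higher. H2ac21 held 3.23 and 3.30 kb in ASC, against 3.07 kb in both FISC libraries (adjusted p = 0.359). H2ac20 and H2bc21, which lie beside it under the same peaks, did not pass either (adjusted p = 0.331 and 0.361). H4c14 held 2.54 and 2.69 kb in ASC, against 2.58 and 2.18 kb in FISC (adjusted p = 0.373), with overlapping groups. H3c13 and H2bc18, which share their covered bases, held 1.81 and 1.74 kb in ASC, against 2.00 and 1.69 kb in FISC (adjusted p = 0.779), again with overlap. A p above the threshold does not show equal coverage. After division by total covered length these 6 genes were called lower.

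Called higher on chromosome 3 were H3c15 and H2ac19, and H3c14 and H2ac18. H3c15 held 3.75 and 3.76 kb in ASC, against 2.07 and 1.60 kb in FISC (adjusted p = 0.00535), and H2ac19 held 3.23 and 3.24 kb in ASC, against the same 2.07 and 1.60 kb in FISC (adjusted p = 0.0105). H3c14 held 2.98 and 3.18 kb in ASC, against 1.99 and 1.92 kb in FISC (adjusted p = 0.00866), and H2ac18 held 2.98 and 3.63 kb in ASC, against 1.99 and 1.92 kb in FISC (adjusted p = 0.0193). Every ASC value lay above every FISC value, as in 62.1% of all genes tested. The calls of H2ac18, H3c14 and H2ac19 were lost without FISC replicate 2 (differences of 1.31, 1.09 and 1.16 kb), and those of H2ac18 and H3c14 also without FISC replicate 1 (1.38 and 1.16 kb). Those of H2ac18 and H2ac19 ended with peaks joined across 500 bases (0.955 and 1.18 kb) and with each base given to its nearest gene (0.285 and 0.126 kb), and after division by total covered length none of the 4 genes was called. The promoters of these 4 genes repeat each other: 69.5% of the 75-base stretches of the H3c14 and H3c15 promoters, and 64.2% of those of the H2ac18 and H2ac19 promoters, occur in both copies, and reads were 75 bases long. In all, 9 of 52 members with a promoter in the table had such a stretch at another place in the table, and all 9 were called higher. Of the 43 with an entry and no repeat, 36 were called higher and none lower, and of the 5 without an entry, whose promoters were not examined, 2 were called higher. On chromosome 3 the 4 genes with repeats were the 4 called, 4 genes with an entry and no repeat were not called, and 2 not called had no entry. The part of ambiguous alignment in these results was not tested.

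**Figure D4:**
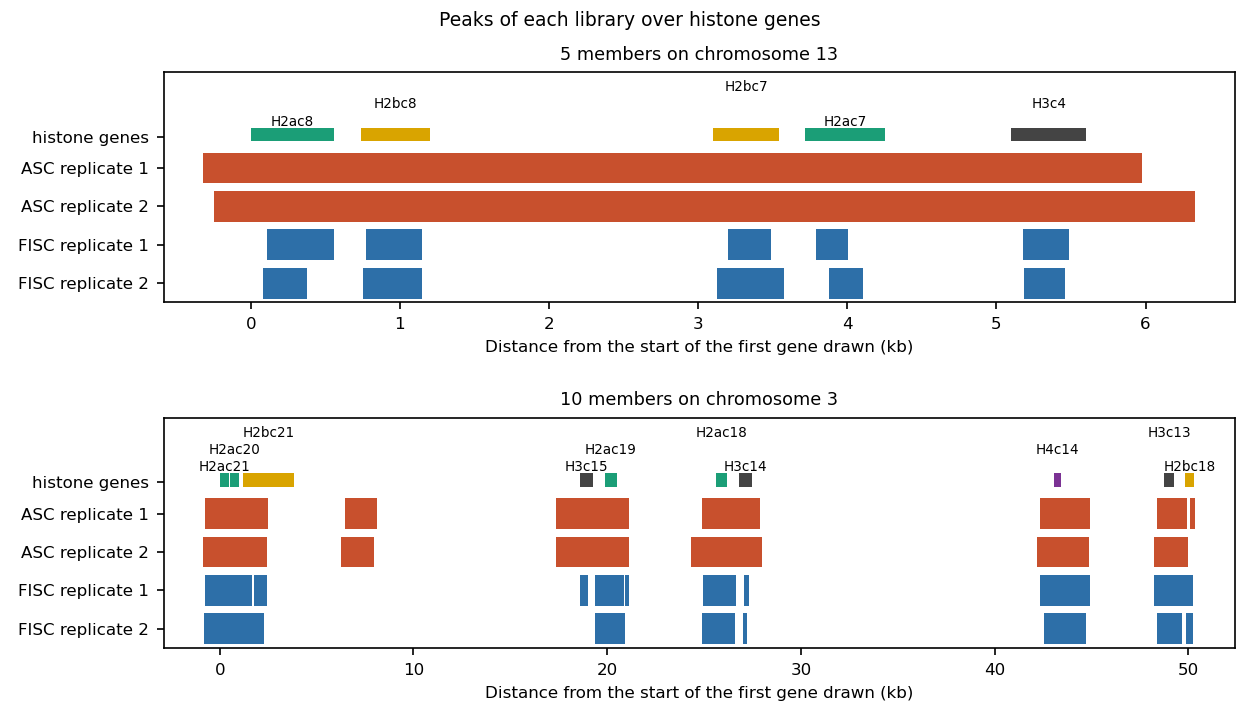
Peaks of each library (bars, ASC red above FISC blue) over 5 histone genes of chromosome 13 (upper panel) and over the 10 of chromosome 3 (lower panel), with distance from the start of the first gene drawn in kb on the horizontal axis. Over the 5 chromosome 13 genes each ASC library has 1 peak, of 6291 and 6579 bases, and each FISC library has 5 separate peaks.

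Peaks over the histone genes were wider in ASC rather than more numerous. Windows were touched by 48 and 44 peaks in ASC, against 49 and 51 in FISC. The median width of these peaks was 1710 and 2360 bases in ASC, against 479 and 447 bases in FISC, while that of all peaks was 603 and 615 bases in ASC and 497 and 515 bases in FISC. Peaks that ran over 2 or more member genes numbered 17 and 18 in ASC, against 4 and 2 in FISC. Across the 5 genes H2ac8, H2bc8, H2bc7, H2ac7 and H3c4 each ASC library had a single peak, of 6291 and 6579 bases, where each FISC library had 5 short peaks. Whole gene bodies were covered at 47 and 49 members in ASC, against 15 and 9 in FISC, and no base of the gene body at 1 member in each ASC library, against 11 and 10 in FISC. The fold enrichment of a peak is the authors' own value and is set here only against its own list. The median fold of peaks in histone windows was 16.8 and 16.3 in the ASC lists, whose medians were 5.71 and 5.18, and 5.65 and 5.24 in the FISC lists, whose medians were 4.57 and 4.97.

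The bases round the start site showed the change in shape. On chromosome 13, 44 genes had an annotated start, and at 250 bases into the gene a peak lay over 97.7% of them in both ASC libraries, against 75.0 and 77.3% in FISC. At the start itself the shares were 90.9 and 95.5% in ASC, against 43.2 and 31.8% in FISC, and at 100 bases before it 86.4 and 88.6% in ASC, against 22.7 and 13.6% in FISC. At 500 bases before the start 86.4 and 93.2% of genes were covered in ASC, against 50% in both FISC libraries. FISC coverage thus had 2 maxima, in the gene body and upstream, with a dip between them, while ASC coverage between these places was 84.1% or more. At 500 bases into the gene 95.5% of genes were covered in both ASC libraries, against 22.7 and 15.9% in FISC, and at 1000 bases 50 and 75.0% in ASC, against 2.27 and 4.55% in FISC. On chromosome 3, with 8 annotated starts, 100% were covered at the start in both ASC libraries, against 75.0 and 62.5% in FISC.

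**Figure D5:**
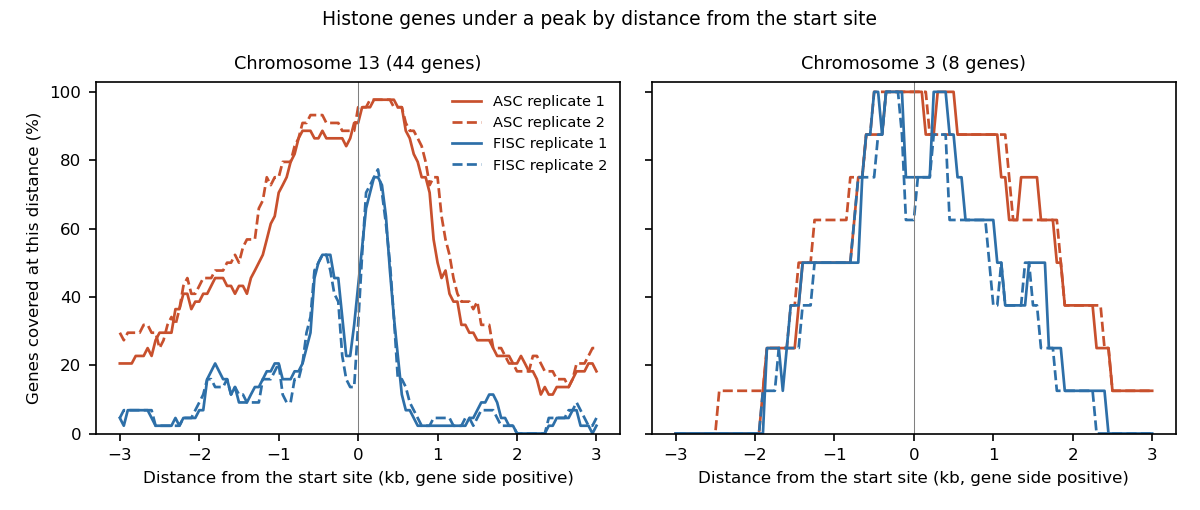
Share of histone genes under a peak (percent, vertical axis) by distance from the annotated start (kb, gene side positive) for chromosome 13 (44 genes, left) and chromosome 3 (8 genes, right), with ASC in red and FISC in blue, replicate 1 solid and replicate 2 dashed. On chromosome 13 FISC lines dip to 22.7 and 13.6% at 100 bases before the start, where ASC lines are at 86.4 and 88.6%.

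Head-to-head pairs have genes that are among the 44 of the start-site profile. FISC peaks left the DNA between the genes partly or wholly uncovered, but not in every pair and library. Pairs were sought only among genes with an annotated start, so members without one, such as H2bc21 and H2bc4, could not enter. Each of 9 pairs of divergent genes less than 500 bases apart joined an H2A and an H2B gene. Their spacers had 163 to 280 bases (median 179), and the pairs found were all on chromosome 13. For these genes the place 500 bases before the start lies in the partner gene, so upstream coverage there is coverage of the partner. A peak covered the whole spacer of 7 and 8 pairs in ASC, against 1 and 0 in FISC, and none of the spacer of 1 pair in each ASC library, against 3 and 4 in FISC. The pair bare in ASC was H2bc1 and H2ac1, which was also bare in FISC and had no FISC peak in its windows, so it shows no dip. At H2bc13 and H2ac13 the spacer was covered over 100 and 4.82% in FISC. At H2ac15 and H2bc15 it was covered over 73.0 and 15.3% in FISC, against 44.2 and 100% in ASC. Over all 53 promoters, 45 and 48 were wholly covered in ASC, against 11 and 8 in FISC. Those of H2ac20 and H2ac6, which reach the annotated ends of H2bc21 and H2bc4, were 100% covered in both ASC and both FISC libraries.

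Other genes lying between the members gave a local comparison. Of 16 further protein-coding genes within the clusters, all on chromosome 13, 7 had windows that overlap a member's, and 5 of these were called higher. Of all genes tested 26.5% were called higher. The 5 were the linker histone genes H1f1, H1f3, H1f4 and H1f5, and H4bc24. The symbol of H4bc24 falls outside the rule, and its promoter shares 75-base stretches with that of H2bc23. Of the 9 with windows apart, 3 were covered in at least 2 libraries, and 2 of these, the linker histone gene H1f2 and Zfp184, were called higher. Zfp184 was thus the only called neighbour without a histone symbol. The 5 genes Slc17a1, Slc17a2, Slc17a3, Slc17a4 and Trim38, and Prss16 in the first stretch, were covered in no library. Hfe, the hemochromatosis gene in the second stretch, held 0.88 and 1.16 kb in ASC, against 1.44 and 1.34 kb in FISC (adjusted p = 0.112). These neighbours were all named after their values were seen. Outside member windows, peaks covered 3.88 and 4.06% of the first stretch in ASC, against 1.95 and 1.63% in FISC, and 2.23 and 2.62% of the second in ASC, against 1.23 and 1.28% in FISC. On chromosome 3 the bases between windows held 1.65 and 1.70 kb in ASC, against 0 kb in both FISC libraries, all from a peak between H2bc21 and H3c15. With windows of 5 kb, which reach that peak, H2bc21 was called higher (difference 1.87 kb).

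Linker histones, which bind DNA between nucleosomes, had 5 of 8 genes called higher and 1 lower, with a median difference of 0.963 kb. Among all genes tested 26.5% were called higher and 3.61% lower. H1f3 held 2.18 and 2.38 kb in ASC, against 0 and 0.319 kb in FISC (adjusted p = 0.00295), and H1f4 and H1f5 were also called (adjusted p = 0.00323 and 0.00435). All 3 lie among the core histone genes of chromosome 13, and their windows overlap members' windows. The gene called lower was H1f0, the linker histone of non-dividing cells, with 2.03 and 2.41 kb in ASC, against 2.97 and 2.95 kb in FISC (adjusted p = 0.0376), named after its values were seen. After division by total covered length 3 linker histones were called higher and 1 lower, and at equal covered length 4 and 1. The shares of all genes called higher and lower were 9.19 and 36.6% after division, and 15.8 and 13.1% at equal covered length.

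Replication-independent variants, histones made outside S phase, had 5 of 9 genes called higher and none lower, with a median difference of 0.588 kb. Over all genes tested 26.5% were called higher and 3.61% lower. The largest differences were at H2az1, H2ax and H2az2 (adjusted p = 0.0102, 0.0287 and 0.0201). H2az1, which encodes H2A.Z, held 4.41 and 4.67 kb in ASC, against 3.23 and 3.27 kb in FISC. After division by total covered length none of the 9 was called higher and 2 lower, and at equal covered length 3 were called higher and none lower. All genes then had 9.19% called higher and 36.6% lower after division, and 15.8 and 13.1% at equal covered length.

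Among 18 genes of the histone locus body and of histone mRNA 3′ end formation, 8 were called higher and none lower (median difference 0.577 kb). The shares over all genes tested were 26.5% higher and 3.61% lower. Slbp, whose protein binds the stem-loop of histone mRNA, held 2.39 and 2.32 kb in ASC, against 1.11 and 1.34 kb in FISC (adjusted p = 0.00786). Npat, the coactivator of histone transcription, held 2.41 and 2.52 kb in ASC, against 1.72 and 1.83 kb in FISC (adjusted p = 0.0226). Every ASC value of both genes lay above every FISC value, as in 62.1% of all genes tested. Divided by total covered length, the differences were 0.371 kb at Slbp and -0.257 kb at Npat, and neither was called. Lsm11, a protein of the U7 particle that guides histone mRNA cleavage, held 0.669 and 1.10 kb in ASC, against 1.28 and 0.632 kb in FISC (adjusted p = 0.86). Sympk, a scaffold of the cleavage complex, was called higher (adjusted p = 0.0104), and Pou2f1, the octamer-binding factor, was not (adjusted p = 0.161). None of the 18 was called higher after division by total covered length and 2 were called lower, and at equal covered length 7 were called higher and none lower. For all genes the shares called higher and lower were 9.19 and 36.6% after division, and 15.8 and 13.1% at equal covered length.

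Of 15 histone chaperones and deposition factors 8 were called higher and none lower (median difference 0.847 kb). In the whole set of genes tested 26.5% were called higher and 3.61% lower. Chaf1b, a subunit of the chromatin assembly factor that deposits H3 and H4 on new DNA, held 1.79 and 1.86 kb in ASC, against 0 and 0.223 kb in FISC (adjusted p = 0.00278). Rbbp7 and Daxx were also called (adjusted p = 0.00802 and 0.024). After division by total covered length 3 were called higher and 2 lower, and at equal covered length 7 and none. All genes tested had 9.19% called higher and 36.6% lower after division, and 15.8 and 13.1% at equal covered length. Of 24 DNA replication genes 20 were called higher and none lower (median difference 0.916 kb), 11 and 1 after division by total covered length, and 16 and none at equal covered length. Among the 20, Cdc6 and Prim1 had 0 kb in both FISC libraries. They entered the test only through the ASC libraries, so no lower call was possible for them. Prim1 was not tested at equal covered length. Tk1, Rrm2 and Mcm6 led them. The thymidine kinase gene Tk1 held 4 kb, the whole window, in both ASC libraries, against 0 and 0.213 kb in FISC (adjusted p = 0.00193).

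Satellite cell markers were covered in both groups, 7 of 8 in each ASC library and 8 of 8 in each FISC library. Their windows summed to 26.2 and 28.3 kb in ASC, against 23.6 and 23.2 kb in FISC, and 3 were called higher (Itga7 and Fgfr4 among them). The gene called lower, 1 of 8, was Calcr, a receptor of quiescent satellite cells that had 0 kb in both ASC libraries. Calcr entered the test only through the FISC libraries. The balance of this list turned with scaling, as that of all genes tested did. In the list 1 was called higher and 5 lower after division by total covered length, and 1 and 1 at equal covered length. Fgfr4 was called under neither (adjusted p = 0.994 and 0.143). All genes tested had 26.5% called higher and 3.61% lower as covered, against 9.19 and 36.6% after division. At equal covered length 15.8% of all genes were called higher and 13.1% lower. Fibro-adipogenic markers summed to 1.44 and 2.42 kb in ASC, against 0 kb in both FISC libraries, all of it at Ly6a (called higher, adjusted p = 0.0156). Ly6a entered the test only through the ASC libraries, and Pdgfra, Dcn, Col1a1 and Lum were at 0 in all libraries. Myeloid markers summed to 1.87 and 3.85 kb in ASC, against 1.55 and 1.05 kb in FISC, with 1 of 5 tested, none called, and Ptprc, Adgre1 and Lyz2 at 0. The other lists summed to less in ASC. Endothelial markers summed to 1.22 and 1.78 kb in ASC, against 2.10 and 2.56 kb in FISC, with 2 of 5 tested, none called, and Pecam1 and Cdh5 at 0. Lymphoid markers summed to 1.35 and 1.53 kb in ASC, against 1.98 and 1.71 kb in FISC, with 2 of 5 tested, 1 called lower (Cd4), and Cd8a at 0, and smooth muscle and pericyte markers to 2.63 and 2.99 kb in ASC, against 3.84 and 3.92 kb in FISC, with 2 of 5 tested, 1 called lower (Cspg4), and Rgs5 and Kcnj8 at 0. With that division, 2 endothelial, 2 lymphoid and 2 smooth muscle and pericyte markers were called lower and 1 fibro-adipogenic marker higher, and at equal covered length 2, 1 and 1 were called lower, while Ly6a was covered in too few libraries to be tested. No myeloid marker was called under either. The part of other cells in the histone gene coverage was not tested.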

How the data were processed

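H3K27ac was measured by ChIPmentation in 4 libraries, 2 of ASC and 2 of FISC, and the labels give single-end sequencing of 75 bases (NextSeq 500). The submitters' processing notes list bcl2fastq 2.19, BWA, Picard, MACS2 and build mm10. Not given in the sources used here: settings, the handling of duplicates and of reads that map to several places, and the use of the inputs. The deposited files are 1 narrow peak list per library. For each peak the authors give a fold enrichment (a linear ratio of summit to background reads), the −log10 p and −log10 q of the summit, and a deposited score that equals 10 times −log10 q without its decimals.

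From the peak positions the kb under peaks within 2 kb of either gene end were computed for 21887 protein-coding genes (Python 3.11.15, pandas 2.3.3), with gene ends from RefSeq. Groups were compared with limma 3.58.1 (eBayes with trend, linear scale, no scaling) over 12924 genes covered in at least 2 libraries, with Benjamini-Hochberg adjustment (threshold 0.05), and the fit was tested on simulated data. No test was made for sums over members. The RefSeq gene table gives no strand, so starts and strands came from its promoter table, which has no entry for H2bc21, H2bc4, H3c1, H3c7 and H4c14. Alternatives were stricter peaks, lists of equal length or number, scaling, other windows, joined peaks, nearest-gene assignment, another filter, a replicate block and leaving out each library. The members and lists were chosen with earlier results of these data known. Genes named are the 3 largest and 2 smallest absolute differences of each histone type, all members outside chromosome 13, the 3 largest absolute differences of each list, and Slbp, Npat and Lsm11. Other genes, including H2ac8 and the markers given as uncovered, were named after their values were seen.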

Additional observations from a re-analysis of the deposited data

How the results depend on the processing

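Of the 57 members, 47 were called higher as reported. The count was 47 for peaks with −log10 q of at least 5, for fold enrichment of at least 5 and for lists of equal peak number, 44 at equal covered length, 42 within 1 kb, 49 within 5 kb, 45 with peaks joined across 500 bases, 39 with each base given to the nearest gene, 45 for genes covered in at least 1 library and 35 after division by total covered length. It was 30 to 46 when 1 library was left out: 33 without FISC replicate 1, 30 without FISC replicate 2, and 45 to 46 without an ASC library. The lone library is then assumed to vary like the other group. Without FISC replicate 2 the called genes of the whole table fell to 677 higher, and without FISC replicate 1 to 830, against 3419. No member was called lower under these settings (0 when 1 library was left out), except 6 after division by total covered length, which are the 6 chromosome 3 genes not called as reported. Without the members whose promoter repeats elsewhere, an alternative chosen after seeing the data, 38 of 48 were called higher, 5 of the 48 having no promoter entry. Counts over all genes moved with the settings as well. Against 3419, 1912 genes were called higher within 1 kb, 4282 within 5 kb, 2685 with joined peaks and 2780 with nearest-gene assignment. The count was 3154 for the −log10 q limit, 3136 for the fold limit, 3235 at equal peak number and 3262 for genes covered in at least 1 library.

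The share of window bases covered, ASC minus FISC, was 29.2 points for all members and moved to 26.5 at equal covered length and 41.4 within 1 kb. Within 1 kb it was 48.6 for H3, 45 for H4, 47 for H2A, 35.6 for H2B, 51.2 and 42.9 for the first and second stretch of chromosome 13 and 16.4 for chromosome 3. At equal covered length it was 26.2 for H4, 26.5 for H2B and 26 for the second stretch. Leaving out 1 library gave 27.4 to 31.1 points for all members, 35.1 to 39.6 for H3, 28.7 to 32.7 for H4, 38.9 to 46.3 for H2A, 27.7 to 31.4 for H2B, 33.9 to 38.1 and 28.3 to 31.9 for the stretches and 10.2 to 14.5 for chromosome 3.

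Of 360 values for 24 named members, 330 kept their direction and side of the threshold, 16 lost and 4 gained a call, and 10 changed sign. Divided by total covered length, the differences were -1.25 kb at H2ac20, -1.26 at H2ac21 and H2bc21, -0.0925 at H3c6 and -0.906 at H4c14. At H3c13 and H2bc18 the difference of -0.0635 kb became 0.0015 with fold enrichment of at least 5 and lay between -0.221 (without FISC replicate 2) and 0.0935 (without FISC replicate 1) when 1 library was left out, and at H3c13 0.0165 within 5 kb. H2ac18 lost its call under 6 of the alternatives and H2ac19 under 4.

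Deviations of same-numbered libraries from their group means had r = -0.0231 over 12924 genes, which are not independent. Whether replicate numbers pair the libraries by animal or day cannot be told from this value. With a replicate block 45 members were called higher and 0 lower, and H2ac1 and H2bc1 lost their call. Read depth, unknown here, limits how far an uncovered window shows absent acetylation.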

Other observations

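Summits, the highest point of each peak as the authors' caller placed it, were compared with annotated starts that lay under a peak on chromosome 13. The median distance between start and summit was 400 and 389 bases in ASC replicates 1 and 2 (40 and 42 genes), against 221 and 166 bases in FISC replicates 1 and 2 (19 and 14 genes). In ASC the summit was on the gene side of the start at 18 of 40 and 21 of 42 genes, against 16 of 19 and 11 of 14 in FISC. The genes with a covered start differ between libraries, and an ASC summit often belongs to a peak over several genes, so these are descriptions of each list.

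Highest fold enrichment per window, set within each list, was lower on chromosome 13 than on chromosome 3 in all 4 libraries. Its median was 21 on chromosome 13 and 28.6 on chromosome 3 in ASC replicate 1, and 17.9 and 23.5 in ASC replicate 2. In FISC replicate 1 it was 5.68 on chromosome 13 and 12.8 on chromosome 3, and in FISC replicate 2 it was 6.02 and 13. No test was made, since genes of a cluster share peaks.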
